A study of Mus musculus with 20 samples.

Results

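The Cep genes encode centrosomal proteins. The members were taken from the entries of the deposited tables whose gene symbol starts with Cep followed by a digit. Described here are 32 of them, present in the table of GFP-low cells, among 11779 entries, and in the table of GFP-high cells, among 11746. Of further such symbols in the GENCODE M21 annotation, Cep126, Cep170, Cep85l, Cep295nl, Cep112it and Cep112os1 are not analysed here. Members were chosen by name from tables that hold only genes with a mean of at least 16.8 counts. One member, Cep83os, is a non-coding transcript whose start lies head to head with that of Cep83.

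Crypt epithelial cells came from the small intestine of C57BL/6J mice aged 8 weeks, and their RNA was sequenced. The mice were Itgb7-/- Lgr5-GFP (knockout, KO) or Itgb7+/+ Lgr5-GFP (wild type, WT), so all groups carried the Lgr5-GFP reporter. Itgb7 encodes integrin beta 7, a surface subunit of gut lymphocytes. Viable EpCAM+ cells lacking CD45, CD31 and TER119 were sorted into GFP-low cells, called transit-amplifying cells in the labels, and GFP-high cells, called stem cells. The 20 libraries formed 4 groups of 5, namely KO GFP-low, WT GFP-low, KO GFP-high and WT GFP-high. Labels number the KO libraries 2, 3, 4, 5 and 6 and the WT libraries 1, 3, 6, 7 and 8, and values are listed in that order. Numbers are called mice here, which no source states, so p-values measure the spread between libraries, which may be technical.

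A centrosome is a pair of centrioles in a cloud of pericentriolar material from which microtubules grow. It is copied once per cell cycle, its copies are held by a linker until mitosis, and the older centriole carries appendages that dock it at the membrane to form a primary cilium. In a dividing crypt, centrosomes organise the mitotic spindle, and the midbody protein Cep55 acts when daughter cells part. The roles given below are known largely from human cell lines.

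Levels are library-scaled counts (CPM, with TMM scaling factors over the 20 libraries). Deposited totals ran from 20900404 to 27838392 counts per library. All 18 stem cell markers were in both tables, and their summed level was 1359 to 1955 CPM in KO GFP-low and 1591 to 2305 CPM in WT GFP-low libraries. It was 6328 to 7371 CPM in KO GFP-high and 5997 to 8449 CPM in WT GFP-high libraries. The 17 Paneth cell markers summed to 27624 to 137927 CPM in KO GFP-low, 66089.7 to 289896 CPM in WT GFP-low, 19636 to 49343 CPM in KO GFP-high and 16431 to 65283 CPM in WT GFP-high libraries, so RNA of Paneth cells was present in both gates. Of 16 markers of multiciliated cells, which carry many centrioles, only Rsph1 was in both tables and Cfap43 in that of GFP-high cells. None of the 18 stem, 17 Paneth or 13 goblet cell markers was at 0 counts in any library. The genotype labels could not be checked on Itgb7 itself, which is not analysed here because neither table lists it.

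Together the 32 Cep genes were lower in GFP-low cells. Their summed level was 445, 431, 436, 385 and 417 CPM in KO GFP-low libraries, against 575, 609, 606, 599 and 612 CPM in KO GFP-high libraries. It was 447, 415, 419, 408 and 382 CPM in WT GFP-low libraries, against 589.8, 578, 553, 521 and 492.9 CPM in WT GFP-high libraries. The populations did not overlap in either genotype. In such bulk libraries, fewer cells of a type and less RNA per cell cannot be told apart.

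**Figure D1:**
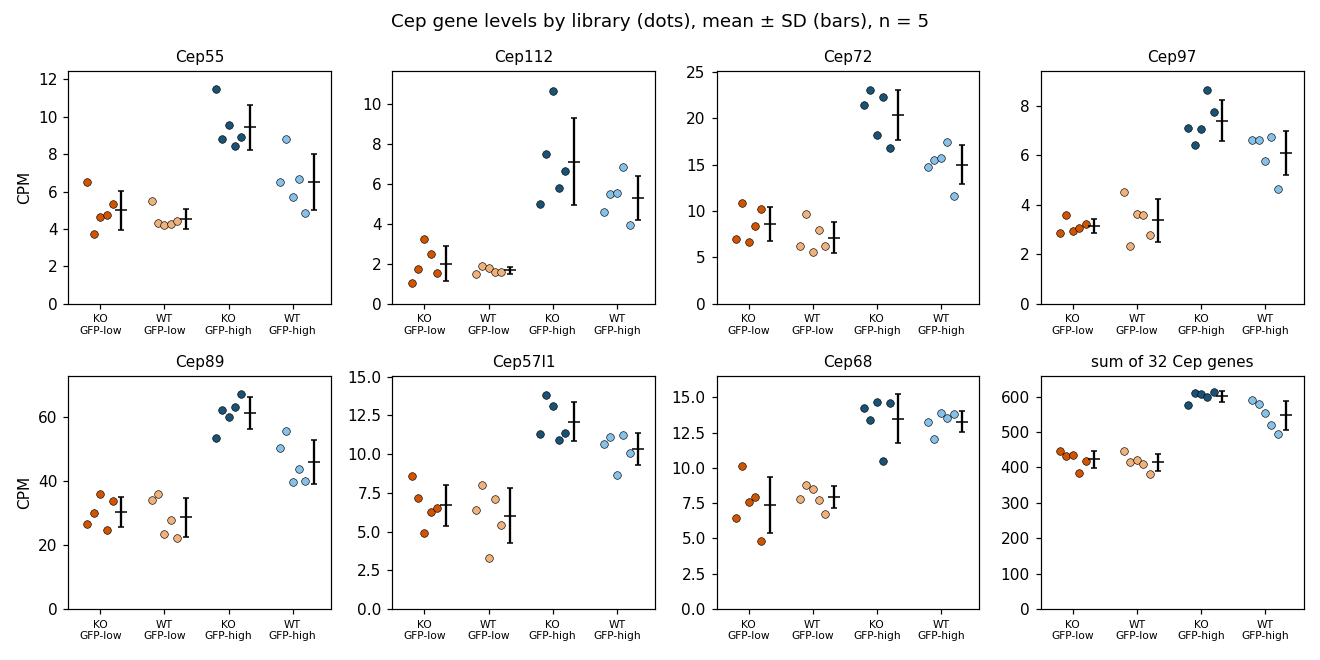
Level in CPM of 7 Cep genes and of the sum of all 32 (one panel each, vertical axes from 0) in KO GFP-low, WT GFP-low, KO GFP-high and WT GFP-high libraries; dots are libraries, bars mean ± SD, n = 5. GFP-low libraries lie below GFP-high libraries of their genotype in every panel, except that Cep55 overlaps in WT mice.

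The comparison of GFP-low with GFP-high cells asked which members differ between the sorted populations. Members that fell or rose were lower or higher in GFP-low cells. In KO mice 20 of 32 members fell, 0 rose and 12 did not pass an adjusted p of 0.05 in the quasi-likelihood test of edgeR, while 21 reached an unadjusted p under 0.05 and DESeq2 called 20, all lower. Of all 11294 genes tested, 24.4% fell and 26.2% rose. In WT mice 17 of 32 fell, 1 rose and 14 did not pass, where 21.4% of 11293 genes fell and 22% rose. The median log2 fold change of the members was -0.56 in KO mice and -0.50 in WT mice, beside -0.0085 and -0.014 over all genes tested in the same mice. In both genotypes 16 members fell, against 17.4% of 11292 genes, and 0 members rose in both, against 19.7%. All GFP-low values lay below all GFP-high values for 16 members in KO mice, where 17.3% of genes did so, and for 12 in WT mice, where 13.7% did so.

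With library totals in place of TMM factors, the all-gene median became -0.27 in KO and -0.37 in WT mice. Unless library totals are named, directions are those with TMM factors. With library totals, from which this shift was not removed, 27 members fell in KO mice and 26 in WT mice, and 0 rose in either. All genes then divided into 1778 rises and 4738 falls in KO mice and 1188 and 4895 in WT mice, against 2956 and 2751 in KO mice and 2479 and 2422 in WT mice with TMM. Markers of other crypt cell types moved between the same libraries. In both genotypes all 17 Paneth and all 13 goblet markers rose, and 17 of 18 stem cell markers fell. Goblet sums were 28695 to 64532 CPM in KO GFP-low, 35193 to 88031 CPM in WT GFP-low, 3088 to 6035 CPM in KO GFP-high and 2865 to 7734 CPM in WT GFP-high libraries. Their part in the Cep changes was not tested. Across the 32 members, which were measured in the same 20 libraries, the changes in KO and WT mice correlated with r = 0.891, beside 0.937 over 11292 genes.

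**Figure D2:**
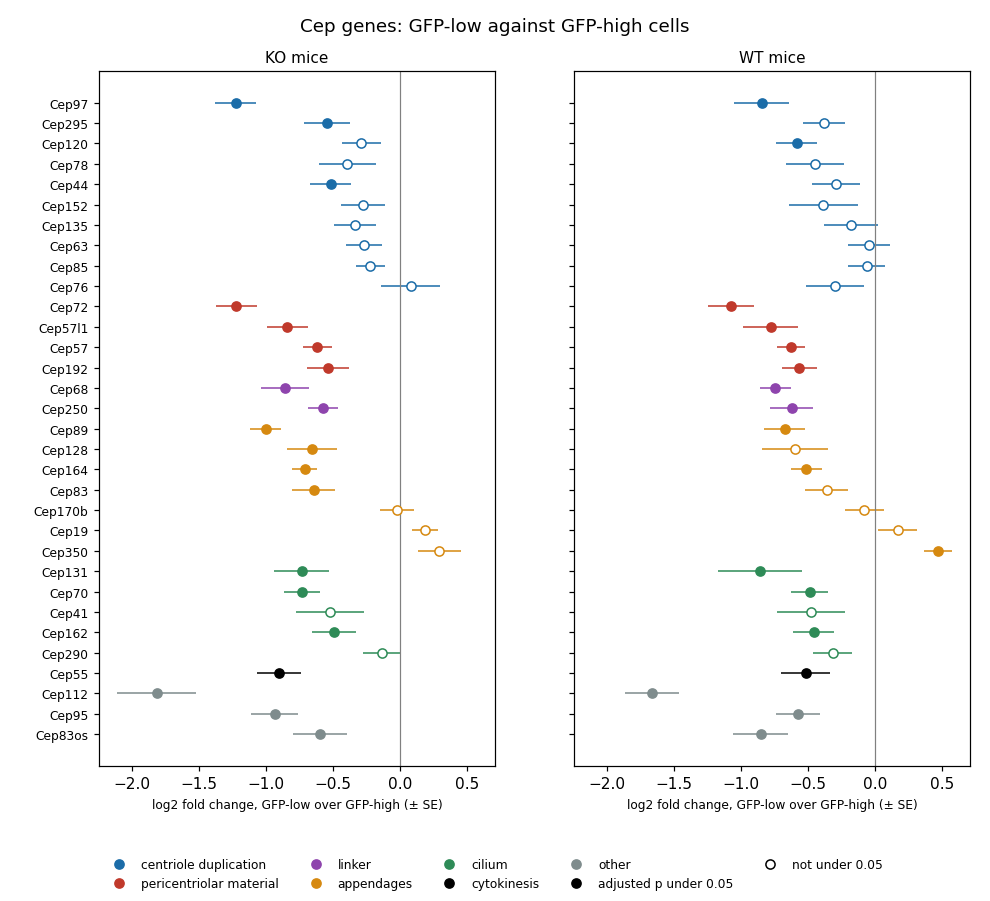
Log2 fold change of each Cep gene in GFP-low over GFP-high cells (horizontal axis, ± SE) in KO mice (left) and WT mice (right), coloured by role; filled points have an edgeR adjusted p under 0.05. Most points lie left of 0, Cep112 farthest, and the filled point right of 0 is Cep350 in WT mice.

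Of the 7 members that fell in both genotypes and hold a cell cycle genes homology region, or CHR, the promoters of 4 are shown (Cep55, Cep72, Cep89 and Cep112). They show where that element lies in these 4 alone. The promoter of Cep83 is shown because it is shared with Cep83os. The windows run from 250 bases before to 50 bases after each gene's start, from RefSeq on GRCm38.p6, and 28 of 32 members had one, all but Cep120, Cep192, Cep350 and Cep76. Searched on both strands were the CHR (TTTGAA), the CCAAT box (CCAAT), an E2F site (TTCCCGC) and a core of the X-box that RFX factors bind at ciliary genes (GTTGCCA). None of these 4 words holds another. The CHR is an element of genes expressed in G2 and mitosis. Capitals mark every match.
Cep55 promoter, chr19:38054734-38055033, + strand: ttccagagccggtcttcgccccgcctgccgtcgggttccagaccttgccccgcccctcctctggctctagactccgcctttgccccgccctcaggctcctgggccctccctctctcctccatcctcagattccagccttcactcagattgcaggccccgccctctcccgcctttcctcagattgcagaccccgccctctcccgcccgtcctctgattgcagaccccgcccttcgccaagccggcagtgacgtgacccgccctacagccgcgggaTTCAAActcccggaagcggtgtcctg
Cep72 promoter, chr13:74062236-74062535, - strand: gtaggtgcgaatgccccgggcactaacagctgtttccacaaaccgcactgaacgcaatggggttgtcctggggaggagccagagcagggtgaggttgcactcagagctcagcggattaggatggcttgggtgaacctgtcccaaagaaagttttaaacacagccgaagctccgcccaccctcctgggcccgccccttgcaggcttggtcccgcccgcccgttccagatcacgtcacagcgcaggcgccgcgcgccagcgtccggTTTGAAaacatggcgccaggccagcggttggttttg
Cep89 promoter, chr7:35396813-35397112, + strand: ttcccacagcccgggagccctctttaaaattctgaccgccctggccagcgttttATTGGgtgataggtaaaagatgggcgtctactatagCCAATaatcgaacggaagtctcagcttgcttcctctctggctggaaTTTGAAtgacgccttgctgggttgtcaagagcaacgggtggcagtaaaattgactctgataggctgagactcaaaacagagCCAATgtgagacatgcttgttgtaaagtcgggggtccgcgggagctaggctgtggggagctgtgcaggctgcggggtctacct
Cep112 promoter, chr11:108425016-108425315, + strand: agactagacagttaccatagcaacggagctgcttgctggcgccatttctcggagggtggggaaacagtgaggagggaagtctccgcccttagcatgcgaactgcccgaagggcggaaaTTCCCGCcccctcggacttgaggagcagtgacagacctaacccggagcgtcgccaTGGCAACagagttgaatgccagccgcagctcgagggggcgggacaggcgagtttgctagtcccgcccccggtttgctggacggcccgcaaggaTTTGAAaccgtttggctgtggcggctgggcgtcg
Cep83 promoter, chr10:94688540-94688839, + strand: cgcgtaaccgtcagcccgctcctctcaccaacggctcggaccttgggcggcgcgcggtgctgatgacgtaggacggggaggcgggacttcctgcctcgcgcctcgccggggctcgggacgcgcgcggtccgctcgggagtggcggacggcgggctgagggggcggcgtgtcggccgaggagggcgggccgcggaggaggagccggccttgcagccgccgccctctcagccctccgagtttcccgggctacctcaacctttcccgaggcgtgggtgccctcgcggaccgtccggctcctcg

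Counted from the start as base 1, the CHR began at base 25 in Cep55, 15 in Cep72 and 17 in Cep112, all downstream of the start, and at base -114 in Cep89. Cep57l1, Cep162, Cep164 and Cep295 held a CHR too, and its place in them is not given here. Cep89 also held CCAAT boxes from bases -196, -160 and -33, and Cep112 an E2F site from base -132 and an X-box core from base -77. The window of Cep83 held none of the 4 words. It covers 276 of the 300 bases of the Cep83os window on the opposite strand, and the starts of Cep83 and Cep83os lie 177 bases apart. A CHR was found in 8 of the 28 Cep promoters, or 28.6%, and in 17.9% of all 32851 promoters. Of those 8 members 7 fell in both genotypes, as did 8 of the 20 without one. Over 11292 genes 17.4% fell in both, and this share applies to each word below. The share among all genes that hold a given word was not determined. Whether a word goes with the fall was not tested. E2F sites were in 8 Cep promoters, or 28.6%, against 4.6% of all promoters, and CCAAT boxes in 14, or 50%, against 37.4%. X-box cores were in Cep112, Cep128 and Cep41, or 10.7%, against 4.38%. Unlike the 28 Cep windows, the 32851 promoters were not limited to genes of the deposited tables or to 1 window per gene. These shares are therefore not like for like, and enrichment was not tested. Of the 8 members with an E2F site 3 fell in both genotypes, as did 12 of the 20 without one. With a CCAAT box 8 of 14 fell in both, and without one 7 of 14. With an X-box core 1 of 3 did, and without one 14 of 25. A match in these letters is a description and does not show that a factor binds.

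Cep55 is the member that acts last in division, recruiting the machinery that cuts the midbody between daughter cells. Cep55 was at 6.50, 3.71, 4.66, 4.77 and 5.33 CPM in the KO GFP-low libraries, against 11.5, 8.81, 9.57, 8.45 and 8.92 CPM in the KO GFP-high libraries. It was at 5.50, 4.33, 4.21, 4.27 and 4.40 CPM in the WT GFP-low libraries, against 6.52, 8.82, 5.73, 6.65 and 4.87 CPM in the WT GFP-high libraries. Every KO GFP-low library was below every KO GFP-high library, whereas in WT mice the highest GFP-low library, of mouse 1, was above the lowest GFP-high library, of mouse 8. The log2 fold change was -0.91 ± 0.16 in KO mice (± SE; edgeR adjusted p = 4.35e-04) and -0.52 ± 0.18 in WT mice (adjusted p = 0.0336). In WT mice it no longer passed without GFP-low mouse 3, 6, 7 or 8 or GFP-high mouse 1, 3 or 7, with adjusted p from 0.0190 to 0.0949 over the 10 libraries left out in turn.

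Among other midbody and cytokinesis genes, 13 of 26 fell and 6 rose in KO mice (median -0.37) and 13 of 26 fell and 6 rose in WT mice (median -0.32). Of all genes, 24.4% fell and 26.2% rose in KO mice, and 21.4% fell and 22% rose in WT mice. The same shares apply to the lists and roles below in this comparison. Members of that list with the smallest p were Cit, a kinase of the midbody (-1.34 ± 0.13 in KO and -0.86 ± 0.14 in WT mice), Racgap1, a subunit of centralspindlin (-0.64 ± 0.13 in KO and -0.82 ± 0.14 in WT mice), and the GTPase Rhoa, which rose (0.53 ± 0.073 in KO and 0.51 ± 0.10 in WT mice). Of the G2 and mitosis list, 35 of 39 fell in KO mice (median -0.67) and 26 of 39 fell in WT mice (median -0.58). There the smallest p belonged to Psrc1 (-2.05 ± 0.11 in KO and -1.83 ± 0.18 in WT mice), the spindle checkpoint kinase Ttk (-1.17 ± 0.19 in KO and -1.003 ± 0.16 in WT mice) and the kinesin Kif2c (-0.98 ± 0.16 in KO and -0.995 ± 0.17 in WT mice). The part of the mitotic transcripts in the fall of Cep genes was not tested.

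All 4 members of the pericentriolar material fell in both genotypes, with medians of -0.73 in KO and -0.70 in WT mice. Cep72 brings proteins of this material to the centrosome. Cep72 was at 6.99, 10.9, 6.71, 8.37 and 10.2 CPM in the KO GFP-low libraries, against 21.4, 22.98, 18.2, 22.3 and 16.8 CPM in the KO GFP-high libraries. It was at 6.21, 9.64, 5.54, 7.93 and 6.21 CPM in the WT GFP-low libraries, against 14.7, 15.5, 15.7, 17.4 and 11.6 CPM in the WT GFP-high libraries. The populations did not overlap in either genotype (log2 fold change -1.22 ± 0.15 in KO mice, edgeR adjusted p = 1.97e-05; -1.08 ± 0.17 in WT mice, adjusted p = 3.34e-04). Cep57l1, a paralog of the scaffold Cep57, also separated the populations. Cep57l1 was at 8.61, 7.15, 4.93, 6.25 and 6.51 CPM in the KO GFP-low libraries, against 11.3, 13.8, 13.1, 10.9 and 11.4 CPM in the KO GFP-high libraries. It was at 6.40, 7.99, 3.28, 7.08 and 5.43 CPM in the WT GFP-low libraries, against 10.7, 11.1, 8.65, 11.2 and 10.05 CPM in the WT GFP-high libraries. Its log2 fold change was -0.84 ± 0.15 in KO mice (edgeR adjusted p = 4.04e-04) and -0.78 ± 0.21 in WT mice (adjusted p = 0.00868). Cep57 itself fell, with -0.62 ± 0.11 in KO and -0.63 ± 0.10 in WT mice. Cep192, the scaffold that recruits the kinases Plk4, Plk1 and Aurka, changed by -0.54 ± 0.15 in KO and -0.57 ± 0.13 in WT mice. The difference between Cep57l1 and Cep57 was not tested.

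Of the list of pericentriolar material and microtubule nucleation genes outside the family, 18 of 27 fell in KO mice (median -0.41) and 16 of 27 fell in WT mice (median -0.47). The smallest p belonged to Ninl, a ninein-like anchor of microtubules (-1.30 ± 0.23 in KO and -1.61 ± 0.18 in WT mice), and to the augmin subunits Haus4 (-0.90 ± 0.15 in KO and -0.84 ± 0.13 in WT mice) and Haus1 (-0.77 ± 0.087 in KO and -0.65 ± 0.13 in WT mice).

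Both linker members fell. Cep68 is a fibre protein that ties the centrosomes together before mitosis. Cep68 was at 6.45, 10.1, 7.55, 7.93 and 4.81 CPM in the KO GFP-low libraries, against 14.2, 13.4, 14.7, 10.5 and 14.6 CPM in the KO GFP-high libraries. It was at 7.81, 8.78, 8.51, 7.73 and 6.76 CPM in the WT GFP-low libraries, against 13.2, 12.01, 13.9, 13.5 and 13.8 CPM in the WT GFP-high libraries. All GFP-low libraries were below all GFP-high libraries of their genotype (log2 fold change -0.86 ± 0.18 in KO mice, edgeR adjusted p = 0.00123; -0.74 ± 0.12 in WT mice, adjusted p = 3.15e-04). Cep250, also called C-Nap1, anchors that linker at the centriole end and averaged 43.3 ± 5.96 CPM in KO GFP-low and 64.9 ± 6.62 CPM in KO GFP-high cells (SD, n = 5). In WT mice it averaged 40.03 ± 8.75 CPM in GFP-low and 61.7 ± 10.9 CPM in GFP-high cells. Its log2 fold change was -0.57 ± 0.11 in KO and -0.62 ± 0.16 in WT mice.

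Of the 10 members of centriole duplication, 3 fell in KO mice and 2 in WT mice, beside 24.4% and 21.4% of all genes in those mice, and the others did not pass. Cep97, which caps centrioles together with Ccp110, had the largest fall of them. Cep97 was at 2.87, 3.57, 2.93, 3.05 and 3.23 CPM in the KO GFP-low libraries, against 7.11, 6.42, 7.07, 8.64 and 7.72 CPM in the KO GFP-high libraries. It was at 4.52, 2.32, 3.63, 3.57 and 2.78 CPM in the WT GFP-low libraries, against 6.61, 6.63, 5.77, 6.75 and 4.63 CPM in the WT GFP-high libraries. The populations did not overlap (log2 fold change -1.23 ± 0.15 in KO mice, edgeR adjusted p = 1.80e-05; -0.85 ± 0.20 in WT mice, adjusted p = 0.00489). Cep295, needed for new centrioles to become centrosomes, fell in KO mice (-0.54 ± 0.17) and was at -0.38 ± 0.16 in WT mice (edgeR adjusted p = 0.0682, or 0.0307 with the mouse as a replicate block, and 0.0258 at the lowest without GFP-low mouse 3 or 6). Cep44, which stabilises new centrioles, fell in KO mice (-0.52 ± 0.15) and was at -0.29 ± 0.18 in WT mice. Cep120, an elongation factor of centrioles, fell in WT mice (-0.59 ± 0.15) and was at -0.29 ± 0.15 in KO mice. Cep152, the scaffold that recruits Plk4, was at -0.28 ± 0.16 in KO and -0.39 ± 0.26 in WT mice without the block and passed with it (edgeR adjusted p = 0.0421 in KO and 0.0373 in WT mice).

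The remaining duplication members, Cep63, Cep76, Cep78, Cep85 and Cep135, passed in neither genotype. Their log2 fold changes lay between -0.45 and 0.078. In KO mice 3 of them passed without a single library, Cep63 without GFP-low or GFP-high mouse 2, Cep85 without GFP-low mouse 5 and Cep135 without GFP-low mouse 4 (edgeR adjusted p down to 0.0354, 0.0370 and 0.0478). Cep63 is the partner of Cep152, Cep76 restrains reduplication and Cep135 joins the cartwheel to the centriole wall. Of the centriole assembly genes outside the family, 10 of 19 fell and 1 rose in KO mice (median -0.44) and 11 of 19 fell in WT mice (median -0.53). The smallest p belonged to Tube1, epsilon-tubulin (-0.79 ± 0.13 in KO and -0.98 ± 0.21 in WT mice), Mphosph9, a partner of Cep97 and Ccp110 (-0.77 ± 0.18 in KO and -0.72 ± 0.13 in WT mice), and Cntrob, a protein of daughter centrioles (-0.82 ± 0.12 in KO and -0.81 ± 0.22 in WT mice).

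Among the 7 appendage and microtubule-anchoring members, 4 fell in KO mice, where 24.4% of all genes fell. In WT mice 2 fell and 1 rose, beside 21.4% and 22% of all genes. Cep89, a distal appendage protein, was among the most abundant members. Cep89 was at 26.8, 30.1, 36.1, 24.8 and 33.9 CPM in the KO GFP-low libraries, against 53.6, 62.2, 60.01, 63.2 and 67.2 CPM in the KO GFP-high libraries. It was at 34.2, 35.9, 23.5, 27.8 and 22.4 CPM in the WT GFP-low libraries, against 50.4, 55.6, 39.7, 43.9 and 40.02 CPM in the WT GFP-high libraries. The populations did not overlap (log2 fold change -1.003 ± 0.11 in KO mice, edgeR adjusted p = 8.49e-06; -0.68 ± 0.15 in WT mice, adjusted p = 0.00350). Its fellow distal appendage protein Cep164, which docks Ttbk2 at the start of cilium formation, changed by -0.71 ± 0.095 in KO and -0.52 ± 0.11 in WT mice. Cep83, the innermost distal appendage protein, fell in KO mice (-0.65 ± 0.16) and was at -0.36 ± 0.16 in WT mice (edgeR adjusted p = 0.0854, 0.0360 without GFP-low mouse 3). The subdistal appendage protein Cep128 fell in KO mice (-0.65 ± 0.19) and was at -0.60 ± 0.25 in WT mice (edgeR adjusted p = 0.0653, 0.00328 with the replicate block, 0.0255 without GFP-high mouse 8 and 0.0429 with DESeq2).

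Cep350, which anchors microtubules at centrioles, went the other way. Cep350 was at 29.00, 21.7, 26.6, 20.8 and 20.7 CPM in the KO GFP-low libraries, against 25.8, 13.8, 22.5, 16.7 and 18.9 CPM in the KO GFP-high libraries. It was at 26.1, 27.6, 33.96, 24.9 and 26.2 CPM in the WT GFP-low libraries, against 20.6, 19.8, 18.7, 20.4 and 20.7 CPM in the WT GFP-high libraries. The WT populations did not overlap, as for 15% of genes higher in GFP-low cells, and the KO populations did. Cep350 rose in WT mice (0.47 ± 0.10, edgeR adjusted p = 0.00320) and was at 0.29 ± 0.16 in KO mice (adjusted p = 0.148, 0.0188 with the replicate block and 0.0434 without GFP-high mouse 2). Scaled by library totals alone it was at 0.12 ± 0.16 in WT mice and 0.044 ± 0.18 in KO mice and passed in neither. Cep19, which recruits Rabl2 to the cilium base, and Cep170b, a paralog of the subdistal protein Cep170, passed in neither genotype, with values from -0.083 to 0.19.

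Of the appendage and linker genes outside the family, 11 of 16 fell and 1 rose in KO mice (median -0.64) and 9 of 16 fell and 1 rose in WT mice (median -0.52). The smallest p belonged to the distal appendage proteins Ankrd26 (-0.97 ± 0.14 in KO and -0.78 ± 0.12 in WT mice) and Fbf1 (-0.79 ± 0.14 in KO and -1.04 ± 0.21 in WT mice) and to centriolin, Cntrl, of the subdistal appendages (-0.97 ± 0.11 in KO and -0.84 ± 0.15 in WT mice).

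Of the 5 members tied to the cilium or to centriolar satellites, 3 fell in both genotypes and the others passed in neither. The satellite protein Cep131 changed by -0.73 ± 0.20 in KO and -0.86 ± 0.31 in WT mice. In WT mice it no longer passed without GFP-low mouse 1, 3, 7 or 8 or GFP-high mouse 1, 6 or 8 (adjusted p up to 0.119). Cep70, a microtubule organiser, fell by 0.73 ± 0.14 in KO and 0.49 ± 0.14 in WT mice on the log2 scale. Cep162, which builds the ciliary transition zone, changed by -0.49 ± 0.16 in KO and -0.46 ± 0.15 in WT mice. It no longer passed in KO mice without GFP-high mouse 4 or 5 (adjusted p up to 0.0618). The same held in WT mice without GFP-low mouse 6 or 8 or GFP-high mouse 1, 3 or 6 (up to 0.0731). Cep290, the transition zone gate, and Cep41, needed for tubulin glutamylation in the cilium, had log2 fold changes of -0.14 ± 0.14 and -0.52 ± 0.25 in KO mice and -0.32 ± 0.14 and -0.48 ± 0.25 in WT mice, and Cep41 passed in KO mice without GFP-high mouse 3 (edgeR adjusted p = 0.0343).

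Of the list of transition zone and intraflagellar transport genes outside the family, 21 of 38 fell and 2 rose in KO mice (median -0.60) and 20 of 38 fell and 1 rose in WT mice (median -0.52). That list named 45 genes, 38 of them tested here. Among the 45 were also Arl3, Arl13b and the RFX factors Rfx1, Rfx2, Rfx3, Rfx5 and Rfx7. The transition zone protein Cc2d2a (-1.58 ± 0.11 in KO and -1.15 ± 0.12 in WT mice) and the transport subunit Ttc21b (-1.36 ± 0.18 in KO and -1.38 ± 0.21 in WT mice) fell, and Ift20, which also acts at the Golgi, rose (0.59 ± 0.10 in KO and 0.62 ± 0.11 in WT mice). Among centriolar satellite genes, 9 of 13 fell in KO mice (median -0.38) and 7 of 13 fell in WT mice (median -0.35). There the smallest p belonged to Spag5, also called astrin (-0.99 ± 0.13 in KO and -0.94 ± 0.17 in WT mice), Wdr90 (-0.99 ± 0.11 in KO and -0.90 ± 0.20 in WT mice) and Bbs4, a subunit of the BBSome (-0.54 ± 0.17 in KO and -0.57 ± 0.14 in WT mice).

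Of the 3 members of less defined role, all fell in both genotypes. Cep112, a coiled-coil protein of the centrosome, had the largest change of all members. Cep112 was at 1.03, 1.74, 3.25, 2.48 and 1.53 CPM in the KO GFP-low libraries, against 4.98, 7.51, 10.6, 5.80 and 6.65 CPM in the KO GFP-high libraries. It was at 1.51, 1.89, 1.77, 1.61 and 1.57 CPM in the WT GFP-low libraries, against 4.62, 5.49, 5.57, 6.85 and 3.92 CPM in the WT GFP-high libraries. The populations did not overlap (log2 fold change -1.81 ± 0.30 in KO mice, edgeR adjusted p = 1.79e-04; -1.66 ± 0.20 in WT mice, adjusted p = 4.38e-05), and its lowest library had 23 counts. Cep95 changed by -0.94 ± 0.17 in KO and -0.58 ± 0.16 in WT mice. The non-coding Cep83os changed by -0.60 ± 0.20 in KO and -0.85 ± 0.20 in WT mice, beside -0.65 ± 0.16 and -0.36 ± 0.16 for the neighbouring Cep83. Cep83os no longer passed in KO mice without GFP-high mouse 3 or 5 (adjusted p up to 0.0689).

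Levels of different genes were set side by side per kilobase of exon, with exon lengths from GENCODE M21. The mean over the 4 groups was 13.4 CPM per kilobase for the most abundant member, Cep19, and 0.545 for the least abundant, Cep97. The median over 11168 genes with a length was 4.43, and 5 members (Cep19, Cep57, Cep89, Cep170b and Cep250) lay above it. Cep19 was at 13.9 ± 1.46 in KO GFP-low, 14.5 ± 2.46 in WT GFP-low, 12.3 ± 0.605 in KO GFP-high and 12.9 ± 2.10 CPM per kilobase in WT GFP-high cells (SD, n = 5), without a change that passed. Cep57 was at 8.35 ± 0.941 in KO GFP-low, 7.91 ± 0.715 in WT GFP-low, 12.9 ± 1.58 in KO GFP-high and 12.2 ± 1.27 CPM per kilobase in WT GFP-high cells. Cep89 was at 5.96 ± 0.925 in KO GFP-low, 5.65 ± 1.20 in WT GFP-low, 12.04 ± 0.982 in KO GFP-high and 9.03 ± 1.36 CPM per kilobase in WT GFP-high cells. In GFP-low cells both lay below Cep19 by more than the SDs of the groups. At the low end stood Cep97 (0.545), Cep41 (0.630) and Cep128 (0.640 CPM per kilobase over the 4 groups). Cep41 and Cep128 did not differ beyond their SD in any group, and within GFP-low cells Cep112 had the lowest mean of all members, 0.325 ± 0.141 in KO and 0.270 ± 0.0257 CPM per kilobase in WT mice.

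**Figure D3:**
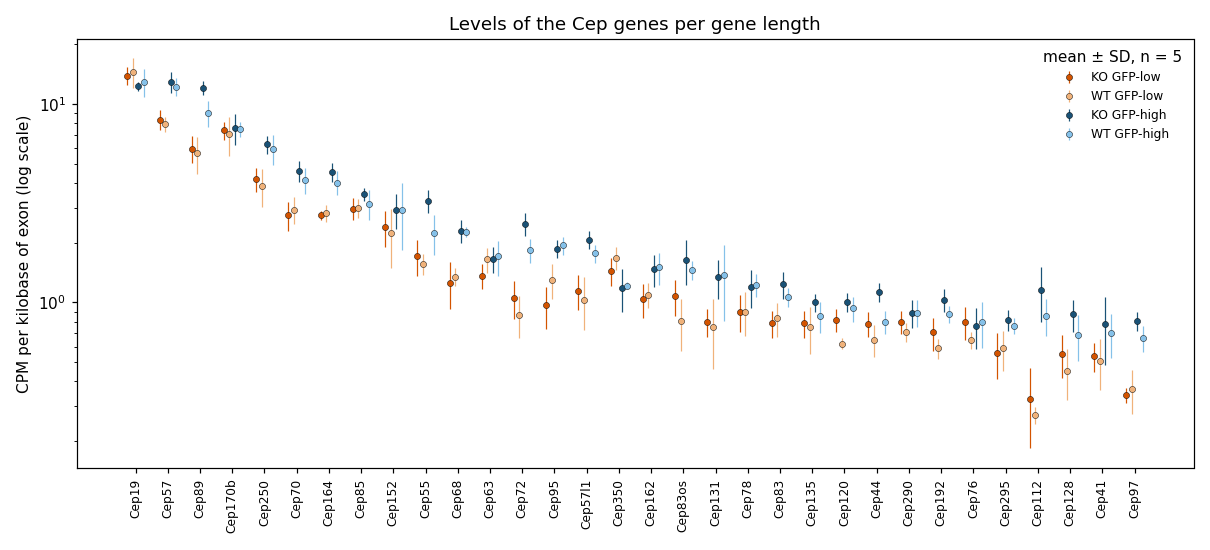
Level of the 32 Cep genes in CPM per kilobase of exon (vertical log axis), ordered by the mean over 4 groups; points are group means of KO GFP-low, WT GFP-low, KO GFP-high and WT GFP-high libraries, bars SD, n = 5. Levels run from above 10 for Cep19 to below 1 at the right, and orange GFP-low points lie below blue GFP-high points for most genes.

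KO and WT mice were compared within GFP-high cells, to see which members change without Itgb7. None of the 32 members passed, as 0% of 11745 genes did with edgeR, and DESeq2 called 145 genes, 1 of them a member. At an unadjusted p under 0.05 there were 4 members of 32, Cep89, Cep72, Cep44 and Cep55, where 9.79% of genes reached it. All 4 were higher in KO cells. That count was 2 with the replicate block, 3 among members whose average log2 CPM reached 3, 5 with library totals and 4 to 6 over the libraries left out in turn. Of all genes 867 reached it with the block, and 934 to 1377 over the left-out libraries, against 1150 in the main fit. Of the 32 members 24 had a positive and 8 a negative log2 fold change, with a median of 0.13, beside 6035 positive and 5710 negative genes and a median of 0.0056 over all genes. The member median was 0.095 to 0.163 over the libraries left out in turn. It was 0.097 with the replicate block and 0.17 with library totals, beside 0.042 over all genes with those totals.

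Cep44 was at 6.10, 6.50, 7.73, 6.43 and 7.62 CPM in KO GFP-high libraries, against 4.36, 4.61, 5.97, 4.95 and 4.43 CPM in WT GFP-high libraries. The groups did not overlap, KO above WT, as for 0.947% of genes (log2 fold change 0.50 ± 0.15, edgeR adjusted p = 0.247). Cep55 averaged 9.45 ± 1.21 CPM in KO and 6.52 ± 1.47 CPM in WT GFP-high cells (SD, n = 5), and 3 of the 5 KO libraries lay above every WT library. Its log2 fold change was 0.54 ± 0.16 (edgeR adjusted p = 0.254). Cep89 averaged 61.3 ± 4.997 CPM in KO and 45.9 ± 6.91 CPM in WT GFP-high cells, and 4 KO libraries lay above every WT library. It gave 0.42 ± 0.10 with edgeR (adjusted p = 0.187), and 0.41 ± 0.12 with DESeq2 (adjusted p = 0.0351), which called it. Cep72 averaged 20.3 ± 2.69 CPM in KO and 14.98 ± 2.12 CPM in WT GFP-high cells, again with 4 KO libraries above every WT library (0.44 ± 0.13, edgeR adjusted p = 0.241). The sum of the 32 members was likewise above every WT GFP-high library in 4 of the 5 KO GFP-high libraries.

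Genes that act with these members in mitosis were measured in the same libraries. Of 39 G2 and mitosis genes 38 had a positive log2 fold change in KO GFP-high cells (median 0.38) and 29 reached an unadjusted p under 0.05, while none passed adjustment. Their summed level was 3138 to 3817 CPM in KO GFP-high and 2406 to 3100.2 CPM in WT GFP-high libraries. Of the 5 lymphocyte markers in the table, which include no Itgb7, 5 were positive (median 1.03) and 0 reached an unadjusted p under 0.05. Of the 14 enteroendocrine markers in the table, 14 were negative (median -0.99) and 10 reached an unadjusted p under 0.05, with sums of 164 to 263 CPM in KO and 165 to 689.5 CPM in WT GFP-high libraries. Of the 13 goblet cell markers, 13 were negative (median -0.52) and 6 reached it, with sums of 3088 to 6035 CPM in KO and 2865 to 7734 CPM in WT GFP-high libraries. Of the 8 tuft cell markers in the table, 7 were negative (median -0.89) and 5 reached it, with sums of 10.05 to 17.2 CPM in KO and 13.9 to 32.4 CPM in WT GFP-high libraries. The part of these cell types and of mitotic transcripts in the Cep values was not tested. The kinase Nek2, which releases the centrosome linker, was at 0.60 ± 0.11, and Plk1 and Aurka, kinases of centrosome maturation, were at 0.47 ± 0.13 and 0.45 ± 0.13. None of these 3 passed.

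Medians of the other lists in GFP-high cells were 0.16 for centriole assembly, 0.16 for pericentriolar material, 0.10 for appendages and linker, 0.10 for satellites, 0.13 for transition zone and intraflagellar transport and 0.17 for midbody genes. No gene of these lists passed. By role, medians of the Cep genes were 0.24 for pericentriolar material, 0.18 for appendages, 0.11 for duplication, 0.052 for the linker and 0.0051 for the cilium.

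**Figure D4:**
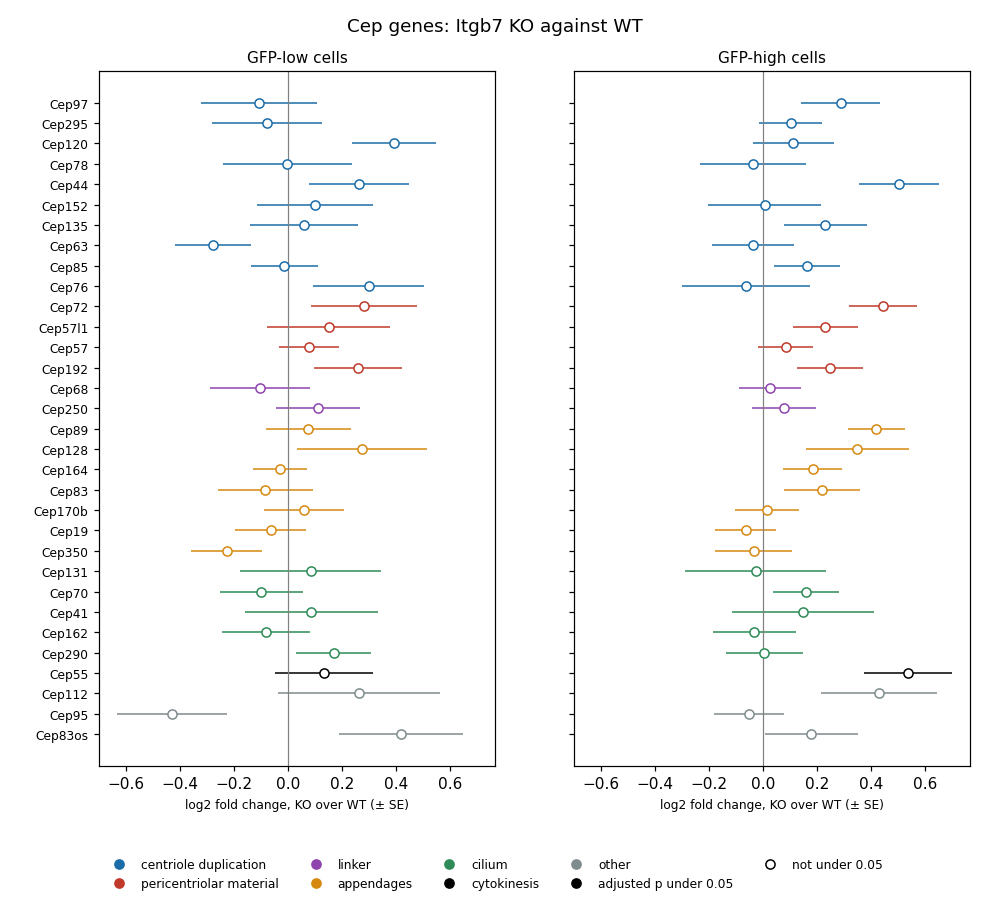
Log2 fold change of each Cep gene in KO over WT mice (horizontal axis, ± SE) in GFP-low cells (left) and GFP-high cells (right), coloured by role; open points have an edgeR adjusted p of 0.05 or more. All points are open, and in GFP-high cells 24 of 32 lie right of 0.

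In GFP-low cells none of the 32 members passed either, where 0.00849% of 11778 genes did. DESeq2 called 12 genes and 0 members. An unadjusted p under 0.05 was reached by 1 member, Cep120, against 6.32% of genes. That count was 4 without KO GFP-low mouse 2, 2 without KO mouse 5 or WT mouse 1, 6 or 8, 0 without KO or WT mouse 3, 2 with DESeq2, 3 with library totals and 0 among members whose average log2 CPM reached 3. Of the 32 members 19 were positive and 13 negative, with a median of 0.077 beside -0.0035 over all genes. Cep120 was at 6.72, 5.96, 5.40, 4.93 and 5.02 CPM in KO GFP-low libraries, against 4.47, 3.84, 4.26, 4.22 and 4.53 CPM in WT GFP-low libraries. All KO libraries were above all WT libraries, as for 0.708% of genes (0.39 ± 0.16, edgeR adjusted p = 0.752). Cep95 was at 5.69, 4.08, 3.46, 3.25 and 3.80 CPM in KO GFP-low libraries, against 6.82, 4.76, 4.61, 6.43 and 4.65 CPM in WT GFP-low libraries. The groups overlapped (-0.43 ± 0.20, edgeR adjusted p = 0.788). Cep63 was at 16.1, 12.6, 10.9, 12.9 and 12.9 CPM in KO GFP-low libraries, against 12.3, 14.8, 17.2, 17.3 and 17.6 CPM in WT GFP-low libraries. These groups overlapped too (-0.28 ± 0.14, edgeR adjusted p = 0.793). Cep55, at 0.14 ± 0.18, averaged 4.99 ± 1.02 CPM in KO and 4.54 ± 0.541 CPM in WT GFP-low cells (SD, n = 5). The G2 and mitosis median was 0.27, with 11 of 39 genes at an unadjusted p under 0.05. Paneth markers were negative in 16 of 17 cases (median -0.76) and absorptive enterocyte markers in 20 of 20 (median -0.42). Stem cell markers were negative in 13 of 18 (median -0.18), tuft in 10 of 11 (median -0.33) and goblet in 6 of 13 (median 0.044). An unadjusted p under 0.05 was reached by 2 Paneth, 9 enterocyte, 7 stem, 0 tuft and 0 goblet cell markers. The part of these cell types in the Cep values was not tested. The member median was 0.012 without KO GFP-low mouse 4 and 0.14 without KO mouse 5. It was 0.016, 0.051 and 0.0087 without WT GFP-low mouse 3, 6 and 8 in turn, and -0.030 over members whose average log2 CPM reached 3. With library totals in place of TMM it was 0.22, beside 0.14 over all genes.

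An interaction term over the 20 libraries tested whether the KO effect was unlike in GFP-low and GFP-high cells. No member and 0% of 11296 genes passed with edgeR or DESeq2, and at an unadjusted p under 0.05 there were 0 members and 3.12% of genes. The smallest p-values belonged to Cep89 (-0.34 ± 0.19), Cep55 (-0.40 ± 0.24) and Cep97 (-0.39 ± 0.24), all negative, which means a more negative change in KO mice. Their adjusted p in edgeR was 0.9999. Members were negative in 21 cases and positive in 11, with a median of -0.10 (0.0047 with library totals, beside 0.11 over all genes). The median was -0.17 without WT GFP-low mouse 8, -0.060 without WT GFP-low mouse 1 and -0.063 without KO GFP-high mouse 4. Leaving out 1 library in turn, 0 to 2 members reached an unadjusted p under 0.05. With the mouse as a replicate block in edgeR, 1 member and 777 genes did, against 353 genes without the block. None passed adjustment in either fit.

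Members differed in how much they varied between libraries of 1 group. The SD of log2(CPM + 1), averaged over the 4 groups, was largest for Cep152 (0.359), Cep128 (0.348) and Cep131 (0.333). It was smallest for Cep164 (0.139) and Cep120 (0.141), with a median of 0.208 over members and 0.207 over all genes. Cep152 was at 18.1, 13.5, 13.9, 9.90 and 13.7 CPM in the KO GFP-low libraries, against 21.7, 13.3, 18.00, 14.3 and 17.1 CPM in the KO GFP-high libraries. It was at 17.2, 9.39, 17.6, 10.9 and 9.05 CPM in the WT GFP-low libraries, against 27.6, 15.4, 16.7, 12.3 and 12.4 CPM in the WT GFP-high libraries. KO mouse 2 was the highest of its genotype in both populations. WT mouse 1 was the highest in GFP-high cells, and in GFP-low cells it lay just below mouse 6. Over all members, the same mouse was highest in both populations for 11 of 32 in KO and 8 of 32 in WT mice, or 34.4% and 25%, beside 31.6% and 32.8% of 11296 genes. Cep152 was singled out here after its values were seen.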

How the data were processed

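Total RNA of 20 libraries was sequenced. The deposited values are expected counts per gene: the submitters' processing notes name TopHat2, Bowtie2 and RSEM and the build mm10, without versions, and neither the strand setting nor the filter is given in the sources used here. The authors' tables hold genes with a mean of at least 16.8 counts, so lower genes are not analysed here. Repeated names (30 entries in the GFP-low table and 34 in the GFP-high table) and names altered to dates (17 and 16) were not among the members.

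Expected counts were rounded to whole counts, since 13.7% of values were not whole. Genes were tested with the edgeR 4.0.16 quasi-likelihood test (R 4.3.3, TMM, filterByExpr with a minimum count of 10) with Benjamini-Hochberg adjustment over all genes tested and a threshold of 0.05. All 32 members described passed the filter. A further entry of the same name pattern is not reported here. Populations were compared over the 11296 genes of both tables, which were deposited separately from libraries processed with the same tools. DESeq2 1.42.0, library totals, other filters, a replicate block and leaving out each library were alternatives. Depth was 20900404 to 27838392 counts, and the lowest member had 23 counts in 1 library. The comparisons of KO with WT mice and of GFP-low with GFP-high cells were run on simulated data, with libraries drawn independently of each other. The outcome is not given here. Such draws lack the relation between same-numbered GFP-low and GFP-high libraries described below. The interaction was not simulated.

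Same-numbered GFP-low and GFP-high libraries deviated together from their group means (r 0.19 to 0.47 in KO and 0.15 to 0.65 in WT mice). Libraries of unlike number gave r of -0.42 to 0.185 in KO and -0.45 to 0.158 in WT mice. The numbers were therefore taken to pair the libraries. For number 3 (r 0.190 in KO and 0.150 in WT mice) the check does not separate pairs from unlike numbers. The main fits have no block, since no source states the authors' model. Their p-values between populations and for the interaction therefore treat same-numbered libraries as independent. Members and lists were chosen with earlier results of these data known. Values are given in every library for Cep55, the 6 members with the largest mean change in both genotypes and the 3 with the smallest p between KO and WT mice in each population, and for Cep55, Cep72 and Cep89 they stand with the comparison of populations. Of each list the 3 genes with the smallest p are named. Cep350 and Cep152 were added, and Cep112 was moved from the appendage group to the group of less defined role, after values were seen. Exon lengths were taken from GENCODE M21 on GRCm38.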

Additional observations from a re-analysis of the deposited data

Results flagged for a closer look

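In 4 of the 132 combinations of a Cep gene, or the summed level, with a group of 5 libraries, 1 library lay far from the other libraries of its group by Dixon's criterion. Chance alone flags about 1 in 20 such groups. Cep152 was at 27.6 CPM in the WT GFP-high library of mouse 1, where the next was 16.7 CPM. Cep164 was at 49.9 CPM in that same library, against a next value of 39.4 CPM, and at 23.3 CPM in the WT GFP-low library of mouse 7, below a next lowest of 28.9 CPM. Cep55 was at 5.50 CPM in the WT GFP-low library of mouse 1, where the next was 4.40 CPM. Of these 4 values 3 belong to WT mouse 1.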

How the results depend on the processing

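Between GFP-low and GFP-high cells, more members fell than rose in both genotypes under each alternative run. Leaving out each library in turn gave 18 to 22 changed members in KO mice (18 to 21 lower, 0 to 1 higher) and 15 to 18 in WT mice (14 to 17 lower, 1 higher). Of all genes, 21.5% to 23.9% were then lower and 23.9% to 25.9% higher in KO mice. In WT mice 17.8% to 20.7% were lower and 19.9% to 21.8% higher. With the mouse as a replicate block, 22 members changed in KO mice (21 lower, 1 higher), including all 20 called without it, and 21 in WT mice (20 lower, 1 higher), including all 18. Calls over all genes grew with the block as well, to 27.9% lower and 29.3% higher in KO mice and 25.9% in each direction in WT mice. Restricted to a mean log2 CPM of at least 3, 13 of 20 members changed in KO mice (13 lower) and 11 of 19 in WT mice (10 lower), because fewer members were tested. Of all genes so restricted, 27.3% were lower and 28.2% higher in KO mice, and 23.9% lower and 23.8% higher in WT mice. Library totals gave 27 lower in KO and 26 in WT mice. Over all genes they gave 42% lower and 15.7% higher in KO mice, and 43.3% lower and 10.5% higher in WT mice. Without a filter the counts were 20 in KO and 18 in WT mice, and with DESeq2 20 in KO and 19 in WT mice. All genes were then 24.3% lower and 26.2% higher in KO mice and 21.4% and 21.9% in WT mice without a filter. DESeq2 gave 25.3% lower and 26.7% higher in KO mice and 22% and 23.3% in WT mice. Between KO and WT mice, DESeq2 called 1 member, Cep89, in GFP-high cells, and the cause was not tested. Other alternatives, each library left out included, gave 0 members in either population and 0 for the interaction. KO and WT mice of the same number, 3 and 6, were not alike (r -0.19 to -0.060 in GFP-low and -0.11 to -0.033 in GFP-high cells). A replicate block on the numbers gave 0 members and called 36 genes in GFP-low and 122 in GFP-high cells. Only numbers 3 and 6 occur in both genotypes, so that block compares KO with WT mice through these alone. It cannot decide whether a member differs. The 5 libraries in each group and the level of Cep112 (23 counts in its lowest library) limit small differences.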
